A study of Mus musculus with 32 samples.

Results

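The inducible heat shock chaperones described here are 10 of the 27179 genes in a table of RNA polymerase II (Pol II) occupancy in mouse organs: Hspa1a, Hspa1b, Hsph1, Hspa8, Hspe1, Hspd1, Hsp90aa1, Hsp90ab1, Dnajb1 and Bag3. They were taken by symbol, and the 10 symbols were chosen by their Pol II levels in these same 8 profiles, with the differences between frozen and fixed tissue and between organs known. Their values in those contrasts are therefore a description and carry no p-value. Each gene had a row, and each passed the filter on low values.

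The series holds 32 libraries from mouse brain, heart, kidney and liver. Organs were either flash frozen or formalin-fixed (10%) and paraffin-embedded (FFPE), and chromatin was immunoprecipitated with an antibody against the Pol II C-terminal domain or kept as input. Crosslinking in 1% formaldehyde (30 min) was done on the frozen cores alone, and the FFPE material was freed of paraffin and extracted at 95 °C for 20 min, so that effects of preservation and of extraction cannot be told apart. No genetic change and no treatment of the mice is given, and the labels name no strain, sex or age. The table used has 8 columns, 1 for each organ and preservation, each called a profile below. The labels do not say whether a profile is 1 library or 2 combined, or which animal it came from, so errors measure only how these profiles spread.

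Heat shock chaperones bind unfolded proteins and help them refold, and they are made in larger amounts when heat, oxidants or other damage leaves proteins unfolded. Their transcription is switched on by heat shock factor HSF1, which binds inverted repeats of the bases GAA, called heat shock elements, close to the start of the gene. These genes are textbook cases of polymerase that waits just after the start site and is released within minutes of stress. HSP70, HSP110, HSP90 and the co-chaperones DNAJB1 and BAG3 act as connected machines, and HSP60 with HSP10 forms the mitochondrial chaperonin.

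RefSeq promoter windows on GRCm38.p6 (the build called mm10), from 250 bases before to 50 bases after a start site, were found for 7 of the 10 genes, with 10 windows between them. Hspa8, Hsp90aa1 and Hsp90ab1 were not matched. The stretches below are shown because they hold heat shock element matches, the feature that the inducible genes are known for. Capitals mark bases in a match to GAANNTTC or TTCNNGAA (2 repeat units) on either strand, and positions count the start base as 0. The first pair are the 250 bases before the start sites of Hspa1a and Hspa1b (chr17:34972157-34972406 and chr17:34959239-34959488, both on the minus strand), intergenic and next to each gene. The others are stretches of 30 bases around a match: before the start of Hspe1 (chr1:55088053-55088082, plus strand), before and after the start of Hsph1 (chr5:149636351-149636380 and chr5:149636288-149636317, minus strand), and after the start of Bag3 (chr7:128523603-128523632, plus strand).
Hspa1a: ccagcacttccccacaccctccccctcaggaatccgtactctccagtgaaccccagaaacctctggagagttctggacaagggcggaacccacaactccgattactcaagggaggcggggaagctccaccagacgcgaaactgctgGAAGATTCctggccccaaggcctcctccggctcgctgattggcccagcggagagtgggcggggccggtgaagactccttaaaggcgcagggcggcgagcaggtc
Hspa1b: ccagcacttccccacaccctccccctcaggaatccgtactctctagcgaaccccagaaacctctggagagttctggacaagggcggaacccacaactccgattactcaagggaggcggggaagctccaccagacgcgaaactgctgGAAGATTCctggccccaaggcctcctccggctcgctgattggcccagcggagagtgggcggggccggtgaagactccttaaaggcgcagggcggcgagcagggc
Hspe1: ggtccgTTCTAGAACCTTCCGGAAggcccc
Hsph1, before the start: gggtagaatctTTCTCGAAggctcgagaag
Hsph1, after the start: gagtaaaatgctgcagaTTCTGGAAAGTTC
Bag3: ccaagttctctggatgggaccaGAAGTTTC

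The windows of Hspa1a and Hspa1b, which encode almost the same stress-inducible HSP70, differed at 4 of 300 positions (98.7% identity). Each held 1 match, from -104 to -97. Hspe1 (HSP10, the lid of the mitochondrial chaperonin) held 3 overlapping matches from -89 to -72, a run of repeats in which the 3-unit forms GAANNTTCNNGAA and TTCNNGAANNTTC were also found. The same 18 bases lie inside the second window of Hspd1 (HSP60, the barrel of that chaperonin), because these genes overlap and are read in opposite directions. In Hsph1 (HSP110, which exchanges the nucleotide of HSP70), a 2-unit match lay at -33 and a 3-unit match began at 36. Bag3, which links HSP70 to small heat shock proteins and to autophagy, had a 2-unit match from 42 to 49.

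A 2-unit match was present in 7 of the 10 windows, against 15.1% of all 32851 windows in the same table. Both windows of Dnajb1 and the first window of Hspd1 held 0 matches, so 6 of the 7 genes had at least 1. The windows of Hspa1a and Hspa1b, nearly the same sequence, are counted separately here. The 3-unit form was present in 4 of 10 windows, against 0.603% of all windows, but the windows of Hspe1 and Hspd1 share 1 stretch and the windows of Hsph1 overlap. The letters CCAAT were present in 6 of 10 windows, against 37.4%, and GGGCGG (a GC box) in 10 of 10, against 35.7%. The letters TATAAA were in 0 of 10, against 13.6%. Both strands were searched for each motif, and 3-unit matches contain 2-unit matches. A match is a description of these letters and not a bound site. The table gives 1 value per gene, so these profiles hold no measurement at the sites themselves.

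**Figure D1:**
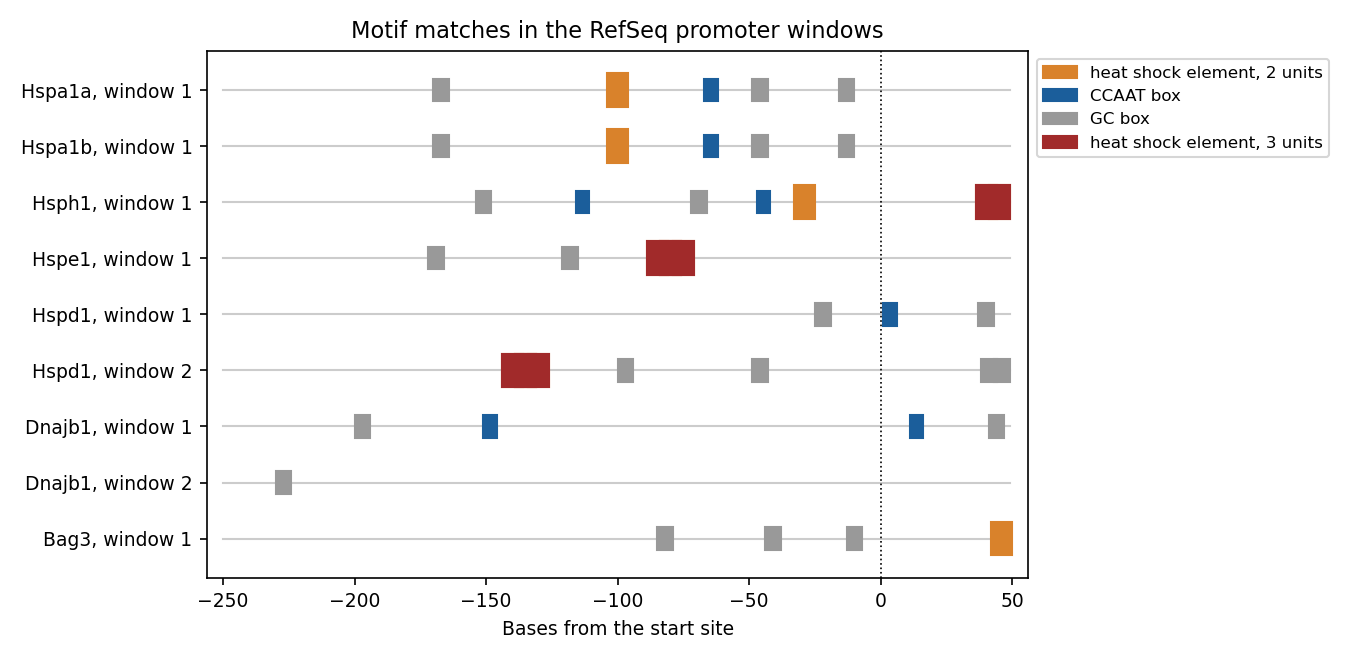
Positions of motif matches in promoter windows, with bases from the start site on the x axis and 1 line per window; the second window of Hsph1, which overlaps the first, is left out. The matches of Hspa1a and Hspa1b sit at the same positions, and those of Hspe1 and Hspd1 (window 2) are 1 stretch seen from opposite directions.

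The profiles held 864816 (FFPE liver) to 2178329 (frozen liver) reads in genes, and mitochondrial genes took 7.73% of reads in both brain profiles, 12% in frozen and 25.6% in FFPE heart, 7.77% and 19.2% in kidney, and 10.1% and 11.8% in liver. Markers fitted the organ labels: the median marker of neurons was 2.41 higher in brain than in the other organs (log2), that of cardiomyocytes 3.88 higher in heart, that of proximal tubule 2.23 higher in kidney and that of hepatocytes 5.38 higher in liver. Values below are log2 of depth-scaled reads over a gene, on which a difference of 1 is a 2-fold change. Fold changes are limma estimates ± SE, and a gene is called when its Benjamini-Hochberg adjusted p is under 0.05 over the 26758 genes tested.

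The 10 genes together took a smaller share of Pol II reads in FFPE than in frozen tissue of every organ. In brain the share was 0.124% frozen and 0.0712% FFPE. In heart it was 0.369% and 0.0963%. In kidney the share was 0.281% and 0.0863%, and in liver 0.388% and 0.0818%. Frozen profiles thus spread from brain at the bottom to liver at the top, and FFPE profiles lay closer together. With mitochondrial genes left out of the total, FFPE shares ran from 0.0772% in brain to 0.129% in heart. Frozen shares then ran from 0.135% in brain to 0.432% in liver. Exact binomial 95% intervals of the shares, which cover counting error only, ran from 0.380% to 0.396% in frozen liver and from 0.0758% to 0.0880% in FFPE liver. The data come from whole organs, so fewer cells of a type and less polymerase per cell cannot be told apart. Extraction also differed between FFPE and frozen tissue, and input libraries were not analysed, so the part of the immunoprecipitation itself was not tested.

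Hspa1a and Hspa1b, the stress-inducible HSP70 genes, lie 10120 bases apart on chromosome 17 (34969359 to 34972156 and 34956429 to 34959238). Hspa1a stood at 6.54 in frozen and 5.59 in FFPE brain, 9.21 and 7.70 in heart, 8.40 and 6.66 in kidney, and 8.88 and 6.63 in liver. Hspa1b stood at 6.71 and 5.51 in brain, 9.27 and 6.91 in heart, 8.63 and 6.29 in kidney, and 9.24 and 6.63 in liver. Every FFPE profile was below the frozen profile of its organ, but FFPE heart (both genes) and FFPE kidney and liver (Hspa1a) were above frozen brain, so the groups overlapped. FFPE against frozen tissue gave -1.61 ± 0.20 for Hspa1a and -2.13 ± 0.21 for Hspa1b (n = 4 profiles against 4), the latter the lowest of the 10 genes. Because the copies are nearly identical, how the authors' counting split reads between them is uncertain. Hspa1a took 48.9% of the reads of the 2 genes in frozen heart (exact binomial 95% interval 46.6% to 51.3%) and 63.5% in FFPE heart (57.3% to 69.3%). In kidney its share was 46.0% frozen (43.4% to 48.7%) and 56.3% FFPE (50.0% to 62.6%). It was 47.1% frozen and 51.3% FFPE in brain, and 43.8% and 50.0% in liver. The share was thus higher in FFPE tissue of every organ, with intervals that were apart in heart and kidney and overlapped in brain and liver.

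Hspa8 encodes HSC70, the HSP70 of unstressed cells, and lies on chromosome 9 (40801276 to 40805202). Its level was 7.64 in frozen and 7.06 in FFPE brain, 9.24 and 7.46 in heart, 9.17 and 7.67 in kidney, and 10.21 and 6.65 in liver. Frozen liver was the highest and FFPE liver the lowest of its 8 profiles, a difference of -3.56 that was the widest among the 10 genes in any organ. Over the 4 organs the fold change was -1.85 ± 0.29, and FFPE kidney was slightly above frozen brain. The snoRNA genes Snord14c, Snord14d and Snord14e lie inside Hspa8, so their folds cannot be told apart from that of Hspa8. Snord14c gave -1.81 ± 0.41 (limma, adjusted p = 0.0436), Snord14d -1.97 ± 0.51 (adjusted p = 0.0924) and Snord14e -1.76 ± 0.48 (adjusted p = 0.113).

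Hsph1 (chromosome 5, 149616843 to 149636498) had 7.16 in frozen and 6.06 in FFPE brain, 7.96 and 5.63 in heart, 8.16 and 6.50 in kidney, and 8.50 and 6.69 in liver. All FFPE profiles were below all frozen profiles, with FFPE heart the lowest, and the fold change was -1.72 ± 0.20. Dnajb1 encodes the HSP40 that delivers clients to HSP70 and starts its ATP hydrolysis (chromosome 8, 83608175 to 83612653). Its levels were 6.66 and 5.84 in brain, 8.42 and 6.49 in heart, 6.93 and 5.96 in kidney, and 7.73 and 5.92 in liver. The groups did not overlap here either, the FFPE profiles spanned only 0.64, and the fold change was -1.38 ± 0.21.

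Bag3 (chromosome 7, 128523583 to 128546981) differed more between organs than any other of the 10 genes. It stood at 5.13 in frozen and 4.13 in FFPE brain, 8.35 and 7.05 in heart, 6.30 and 5.60 in kidney, and 7.78 and 6.24 in liver. FFPE heart was thus above frozen brain and frozen kidney, FFPE kidney and liver were above frozen brain, and the groups overlapped. The range over organs was 3.22 in frozen and 2.92 in FFPE tissue, and the FFPE fold change was -1.14 ± 0.20, the smallest reduction of the 10.

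The mitochondrial chaperonin genes Hspe1 and Hspd1 overlap head to head on chromosome 1 (55088148 to 55091317 and 55077833 to 55088243). Hspe1 stood at 5.22 in frozen and 4.09 in FFPE brain, 7.75 and 5.52 in heart, 6.84 and 4.98 in kidney, and 7.54 and 5.03 in liver. Hspd1 stood at 6.18 and 5.59, 7.59 and 5.93, 6.83 and 6.04, and 7.81 and 5.76 in the same order. Hspe1 in FFPE heart was above frozen brain, whereas the FFPE profiles of Hspd1 were all below its frozen profiles. Fold changes were -1.93 ± 0.23 for Hspe1 and -1.27 ± 0.23 for Hspd1. Of the reads on both genes, Hspe1 took at most 42.9% in the FFPE profiles and 33.8% to 52.8% in the frozen ones, and within each organ its share was lower in FFPE tissue. In kidney that share was 50.2% frozen and 32.4% FFPE, and the FFPE interval (exact binomial, 95%) of 24.6% to 40.9% ended below the lower bound of 45.4% in frozen tissue. In brain, heart and liver the intervals of the frozen and FFPE shares overlapped.

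HSP90 completes the folding of kinases and steroid receptors and exists as the more inducible Hsp90aa1 (chromosome 12, 110691036 to 110696395) and the more constant Hsp90ab1 (chromosome 17, 45567778 to 45573261). Hsp90aa1 had 7.35 in frozen and 6.24 in FFPE brain, 8.30 and 6.49 in heart, 7.42 and 6.27 in kidney, and 8.20 and 5.48 in liver. Hsp90ab1 had 7.50 and 7.03, 8.85 and 7.24, 8.38 and 7.10, and 9.54 and 6.55 in the same order. For both genes all FFPE profiles were below all frozen ones, and FFPE liver was the lowest profile. Fold changes were -1.70 ± 0.23 for Hsp90aa1 and -1.59 ± 0.26 for Hsp90ab1. Slc35b2, which ends 106 bases from Hsp90ab1, gave -0.85 ± 0.23 (limma, adjusted p = 0.112). Hspa1l, 546 bases from Hspa1a, gave -0.53 ± 0.27 (adjusted p = 0.582).

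**Figure D2:**
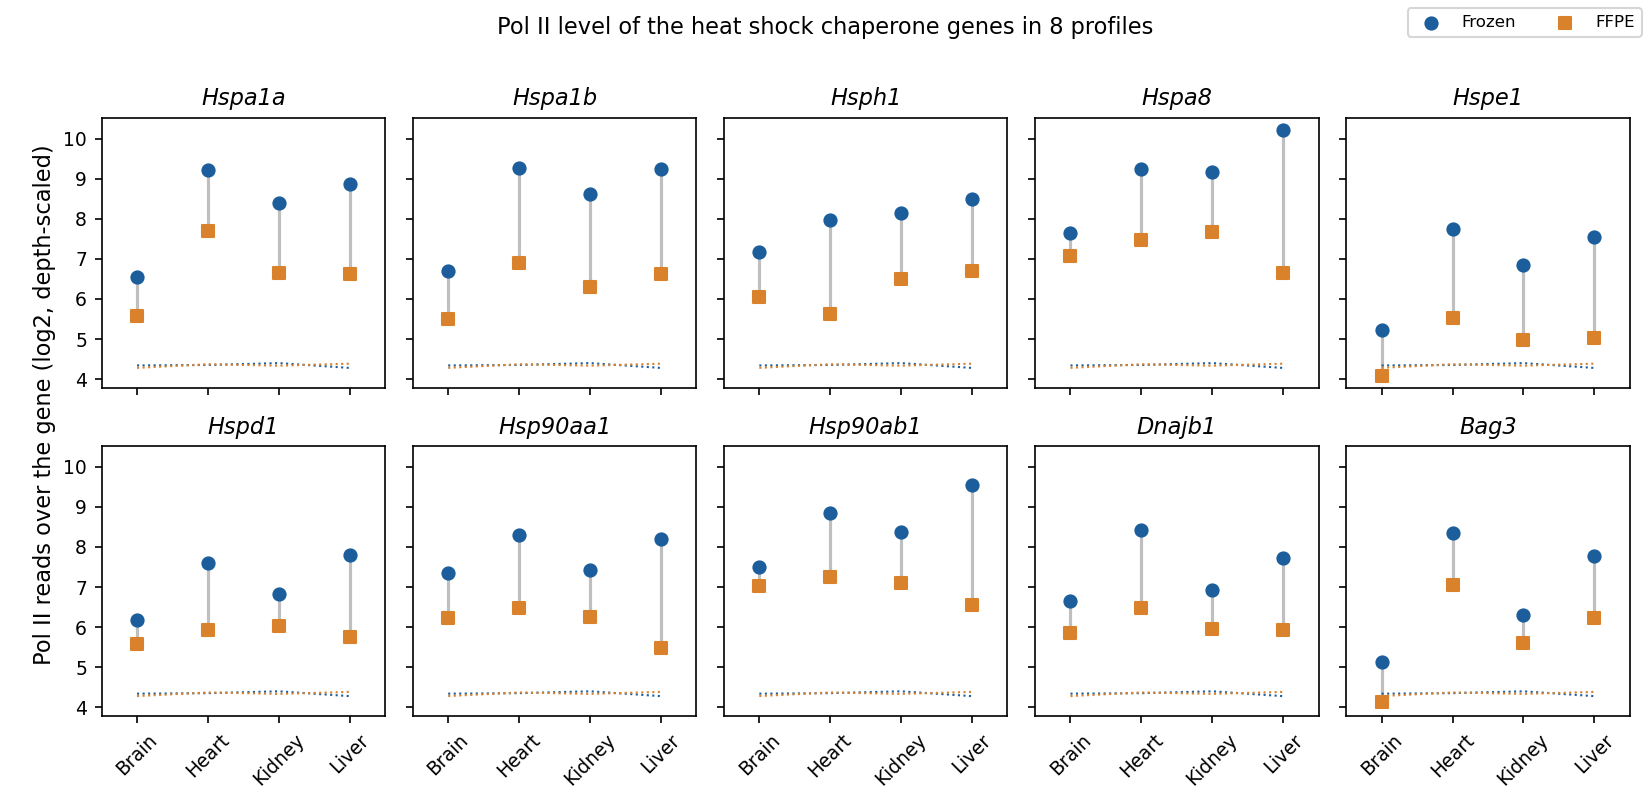
Pol II level (log2, depth-scaled reads over the gene) of the 10 genes in 8 profiles, 1 point per profile, with a grey line joining frozen and FFPE tissue of an organ and dotted lines at the median of all genes tested. FFPE points lie below frozen points in all 4 organs for each gene, and frozen brain is the lowest frozen profile of each.

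Scaled to gene length (reads per kb of gene, per 1000000 reads), frozen liver ranked Hspa8 highest at 302, followed by Hspa1b at 215, Hspa1a at 168 and Hsp90ab1 at 136. In FFPE liver the values were 25.4 for Hspa8, 35.1 for Hspa1b, 35.3 for Hspa1a and 17.0 for Hsp90ab1, so the order of these 4 genes changed. Lowest per length were Bag3 at 9.40 and Hsph1 at 18.4 in frozen liver. These are the longest of the 10 genes, at 23399 and 19656 bases. Lengths are whole gene spans, and the sources used here do not say which part of a gene was counted. In frozen tissue 6 of the 10 genes stood at or above the 95th percentile of all 27179 genes in each of the 4 organs, and in FFPE tissue 1 did (Hspa8). With brain left out, 9 did so in frozen tissue, the exception being Bag3 (92.5 in kidney), and 2 in FFPE tissue (Hspa1a and Hspa8).

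All 10 genes were called lower in FFPE than in frozen tissue, where 0.422% of genes tested were called lower and 0.153% higher. Their median fold change was -1.66, against -0.01 over all genes tested and -0.06 over genes with a mean log2 of at least 6. Of those 3279 genes of higher level, 59 were called lower and 3 higher. That set is not matched in level to the 10 genes. Its median in the frozen profiles was 6.37 to 6.68, against 6.69 to 8.38 for the 10 genes. All were lower in FFPE tissue of every organ, as were 8.45% of genes tested, and 5 of 10 had no overlap between the groups (Hsph1, Hspd1, Hsp90aa1, Hsp90ab1 and Dnajb1), as had 1.33% of genes tested. The choice of the 10 genes used this contrast, so nothing is read from these counts. Without either heart profile, calls fell to 5 of 10, with Hspa8, Hspd1, Hsp90ab1, Dnajb1 and Bag3 no longer called. Folds of each gene kept their sign in all 18 settings run, between -2.44 and -1.78 for Hspa1b and between -1.28 and -0.94 for Bag3.

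Within a single organ there is 1 profile per side and no test, and intervals cover counting error only. The 95% counting interval of FFPE against frozen reads lay below 0 in all 40 pairs of gene and organ, and below -1 in 25. Such intervals were made for the 10 genes only, without a share over all genes, so nothing is read from these counts. In brain the median difference was -0.98, and 5 of the 10 genes were at least 2-fold lower, against 6.76% of genes tested. In kidney the median was -1.39, with 7 of 10 at least 2-fold lower (11.4% of genes). The median was -1.80 in heart, with 10 of 10 (11.7%), and -2.38 in liver, with 10 of 10 (14.4%). The order of the organs depended on the scaling: quantile normalization gave -0.96 in brain, -1.44 in kidney and -1.51 in both heart and liver, and scaling to silent receptor genes gave -1.08 in both brain and kidney. As deposited, the reduction was smallest in brain for 9 of the 10 genes (in kidney for Bag3), and largest in liver for 8 and in heart for 2 (Hsph1 and Dnajb1). No share over all genes stands beside this order, and nothing is read from it.

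Each organ's own marker genes moved as well, and their part in these results was not tested. The median FFPE minus frozen difference was -0.17 for the 6 neuron markers in brain, -1.04 for the 6 cardiomyocyte markers in heart, -0.46 for the 6 proximal tubule markers in kidney and -2.26 for the 6 hepatocyte markers in liver. Outside their own organ, where levels were lower, these medians went both ways. Neuron markers ran from -0.06 in kidney to 0.93 in liver, and cardiomyocyte markers from -0.13 in brain to 0.08 in liver. Proximal tubule markers ran from -0.30 in heart to 0.49 in liver, and hepatocyte markers from -0.42 in kidney to 0.63 in heart. A link between level and direction was not tested. In liver the hepatocyte markers ran from -3.23 (Fgb) to -1.17 (Cps1), which overlapped the range of the 10 chaperone genes from -3.56 (Hspa8) to -1.54 (Bag3). In heart the cardiomyocyte markers ran from -1.81 (Actc1) to -0.02 (Tnni3), and the 10 chaperone genes from -2.36 (Hspa1b) to -1.30 (Bag3). In kidney the proximal tubule markers ran from -2.15 (Kap) to -0.04 (Cubn), and the 10 from -2.34 (Hspa1b) to -0.70 (Bag3). The ranges thus overlapped in these organs as well. In brain the neuron markers ran from -0.43 (Stmn2) to 0.07 (Grin1), above the 10 chaperone genes, of which Hsp90ab1 (-0.47) was closest to 0.

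**Figure D3:**
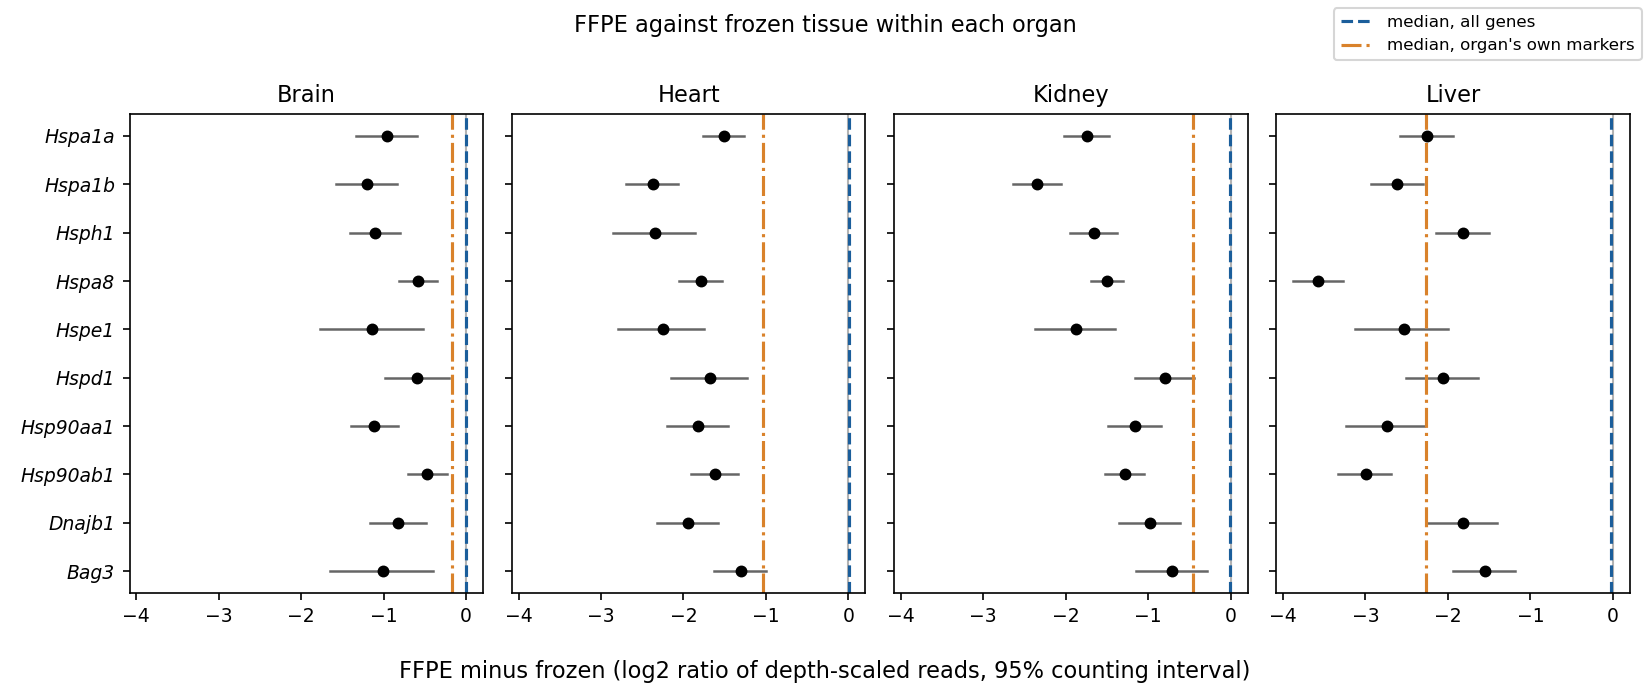
FFPE against frozen tissue within each organ for the 10 genes (log2 ratio of depth-scaled reads), with bars for the exact binomial 95% counting interval and vertical lines for the median of all genes tested and of the organ's own markers. The points lie closest to 0 in brain and farthest in liver, where the hepatocyte marker median of -2.26 is within their range.

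The organs' FFPE minus frozen values were also set against each other, each organ against the mean of the other 3. Liver minus that mean was -2.28 for Hspa8 and -1.87 for Hsp90ab1. Hsp90aa1 followed at -1.37, and Hsph1 was closest to 0 at -0.12. Each organ enters with a single value here, so the limma SE of 0.40 for both Hspa8 and Hsp90ab1 holds no liver replicate and assumes that liver varies like the other organs (2 residual degrees of freedom). At that SE, 2 of the 10 genes were called lower in liver, as were 0.419% of genes tested, and 5 had an unadjusted p under 0.05, as had 6.78% of genes. In brain, heart and kidney 0 of the 10 were called, with 3 higher in brain (0.848% of genes) and 0 in heart and kidney at an unadjusted p under 0.05. The genes were chosen with these values known, so nothing is read from these counts. In liver 0 were called after quantile normalization, after scaling to silent receptor genes, or with the variance trend drawn over the mean difference (limma's default here), and the count was 1 without either brain profile and 4 without either heart profile.

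Organ levels of the 10 genes put brain lowest. In frozen tissue brain was the lowest organ for 10 of 10, and heart was the highest for 6 (Hspa1a, Hspa1b, Hspe1, Hsp90aa1, Dnajb1 and Bag3) and liver for 4 (Hsph1, Hspa8, Hspd1 and Hsp90ab1). In FFPE tissue brain was lowest for 6, liver for 3 (Hspa8, Hsp90aa1 and Hsp90ab1) and heart for 1 (Hsph1). The organ order was the same in both preservations for 3 genes (Hspa1b, Hspe1 and Bag3). The range over organs was narrower in FFPE tissue for 9 of 10, the exception being Hsp90aa1 (0.95 frozen and 1.01 FFPE). With 1 profile per organ and preservation, neighbours in these orders carry no spread, and several were close: Hspa1b stood at 9.27 in frozen heart and 9.24 in frozen liver. The counts of orders and ranges have no share over all genes beside them. The genes were chosen with these levels known, so nothing is read from those counts.

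Fitted over both preservations (2 profiles against 6), 4 genes were called lower and 0 higher in brain, where 4.02% of genes tested were called lower and 3.43% higher. Bag3 gave -2.26 ± 0.23, Hspa1a -1.85 ± 0.23, Hspa1b -1.72 ± 0.24 and Hspe1 -1.63 ± 0.27. Hsp90aa1 was nearest to the other organs at -0.23 ± 0.26. Brain was lowest in both preservations for 6 genes, as for 10.3% of genes tested. Leaving out frozen brain reduced the count in brain to 1, and leaving out FFPE liver raised it to 9, as did voom weights.

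Heart had 5 genes called higher and 0 lower, where 3.06% of genes tested were called higher and 2.18% lower. Bag3 led with 1.83 ± 0.23, and Hspa1a (1.34 ± 0.23), Hspe1 (1.02 ± 0.27), Dnajb1 (0.95 ± 0.24) and Hspa1b (0.92 ± 0.24) followed. Hsph1 was the only 1 of the 10 below the other organs there, at -0.38 ± 0.23. The count was 1 without either heart profile, 2 without frozen brain or frozen kidney, 3 without FFPE kidney and 8 without frozen liver. Bag3 was called higher in liver as well, at 0.92 ± 0.23, where 4.52% of genes tested were called higher and 3.39% lower (0 of the 10). That liver count of 1 was 2 without FFPE brain, 6 without FFPE liver, 4 with voom weights, and 0 without frozen brain, FFPE heart, frozen kidney or frozen liver, or after scaling to silent receptor genes. In kidney 0 genes were called in limma's test (0.456% of genes tested were called lower and 0.919% higher), with 1 lower and 0 higher at an unadjusted p under 0.05 (5.55% and 5.09% of genes). In kidney 1 was called higher after quantile normalization and 1 without frozen liver.

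**Figure D4:**
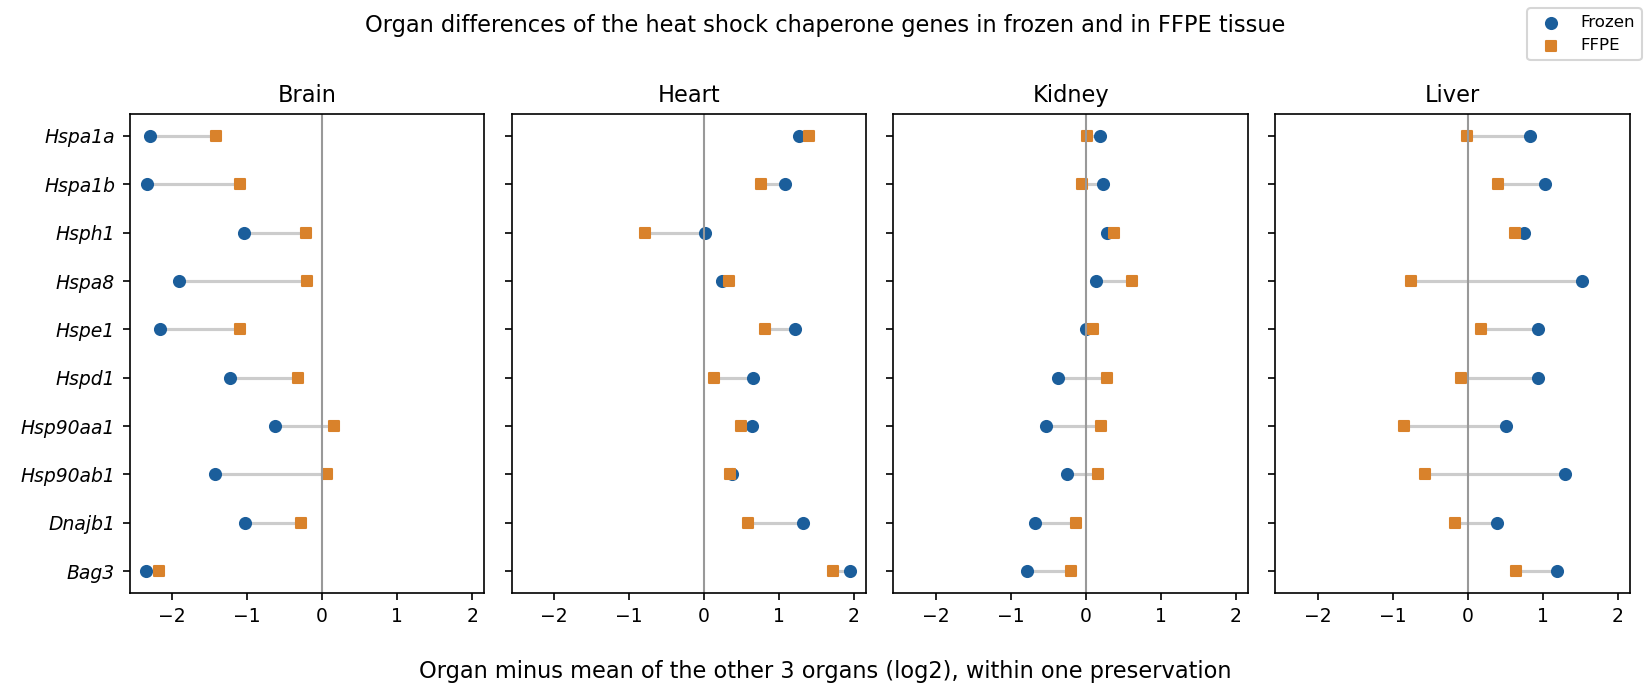
Each organ minus the mean of the other 3 within frozen tissue (circles) and within FFPE tissue (squares), on a log2 scale, for the 10 genes. Brain points lie left of 0 in frozen tissue and closer to 0 in FFPE tissue, and in liver Hspa8 goes from 1.53 in frozen to -0.75 in FFPE tissue.

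The profiles of the 10 genes resembled each other to different degrees. Pearson's r over the 8 profiles, between a gene and the mean of the other 9, was highest for Hspe1 (0.991) and lowest for Bag3 (0.795) and Hsph1 (0.831). Among pairs, Hspa1b and Hspe1 had the highest r at 0.996, and Hsph1 and Bag3 the lowest at 0.531. These are descriptions over profiles that share library totals. Outside the 10 genes, and among genes with a mean log2 of at least 4, the profiles most like the members' mean were those of Rnf44 (0.984), Dnaja1 (0.974), Vegfa (0.972) and Fahd1 (0.961). Dnaja1 is a J-domain partner of HSP70, and Vegfa encodes a growth factor of blood vessels. Vegfa stood at 6.70 in frozen and 6.14 in FFPE brain, 8.96 and 7.15 in heart, 7.60 and 6.53 in kidney, and 8.37 and 6.41 in liver, again with brain lowest and every FFPE profile below its frozen one. Next came Tgds, E030030I06Rik, Nabp1, 2410022M11Rik, Azi2 and Serf2, with r of at least 0.953.

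Other chaperone genes were called lower in FFPE tissue in smaller numbers, and none of the listed ones was called higher. The background is again 0.422% of genes tested called lower, or 5.53% lower at an unadjusted p under 0.05, and p-values are limma's, adjusted over all genes. These lists were chosen with earlier results of these data known, so nothing is read from their counts or p-values. Among 4 heat shock factor genes 0 were called, also at an unadjusted p under 0.05, and Hsf1, the factor that activates the chaperone genes, gave -0.01 ± 0.23. Of 8 other HSP70 and HSP110 genes 0 were called, with 1 lower at an unadjusted p under 0.05. Of 13 HSP90 co-chaperones 2 were called: Stip1, which bridges HSP70 and HSP90, at -1.44 ± 0.20 (adjusted p = 0.000957), and Chordc1, which binds HSP90, at -0.93 ± 0.21 (adjusted p = 0.0408). Sugt1, another HSP90 partner, gave -0.02 ± 0.23, and 6 of the 13 were lower at an unadjusted p under 0.05. Of 16 HSP70 co-chaperones 2 were called, the J-domain genes Dnaja1 at -1.35 ± 0.22 (adjusted p = 0.00264) and Dnajb4 at -1.12 ± 0.23 (adjusted p = 0.0226), whereas Dnajb6 gave 0.03 ± 0.20. In that list 6 of 16 were lower at an unadjusted p under 0.05.

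Among 7 small heat shock proteins 1 was called, Hspb8, the partner of BAG3, at -1.39 ± 0.29 (adjusted p = 0.0209), and 4 of 7 were lower at an unadjusted p under 0.05. None of the 8 genes of the TRiC chaperonin, which folds actin and tubulin, was called, with 4 lower at an unadjusted p under 0.05 and a median of -0.55. Likewise 0 of 9 mitochondrial chaperones and proteases were called, with 2 lower unadjusted. Of 15 endoplasmic reticulum chaperones 3 were called: Dnajb9 at -1.29 ± 0.29 (adjusted p = 0.0408), Hspa5, the HSP70 of that compartment, at -1.09 ± 0.24 (adjusted p = 0.0383), and the lectin chaperone Calr at -0.93 ± 0.21 (adjusted p = 0.0386). Here 9 of 15 were lower at an unadjusted p under 0.05. Of 16 immediate early genes, which respond within minutes to many stimuli, 3 were called. At an unadjusted p under 0.05, 11 of the 16 were lower and 1 was higher. Those called were the AP-1 genes Jund at -1.33 ± 0.24 and Jun at -0.99 ± 0.21, and the kinase phosphatase gene Dusp1 at -1.15 ± 0.20 (adjusted p = 0.00621, 0.0318 and 0.00621). All 11 genes called over these lists kept their sign in all 18 settings. Of them, 0 were called without either heart profile, 4 or 5 without either brain or either liver profile, and 7 without either kidney profile.

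**Figure D5:**
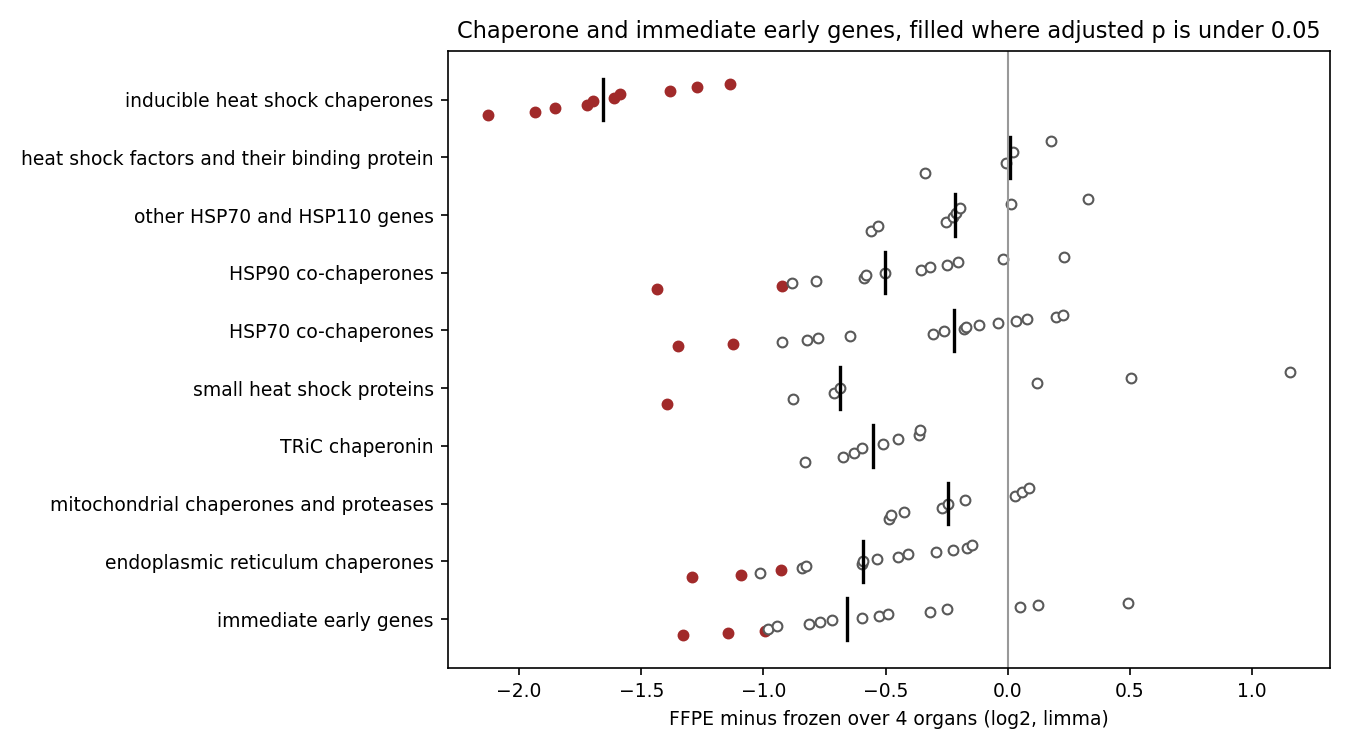
FFPE minus frozen fold change (log2, limma, over 4 organs) of the 10 genes and of the other chaperone and immediate early lists, 1 point per gene, filled where the adjusted p is under 0.05, with a bar at each list's median. The 10 genes lie between -2.13 and -1.14, and the medians of the other lists lie between -0.69 and 0.01.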

How the data were processed

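Pol II ChIP of mouse organs was read from a table of gene values. The log2 values deposited by the authors lie on the scale of limma's voom, with 0.5 reads added to each count. The submitters' processing notes name Bowtie2, featureCounts, limma and the mm10 build, without versions. Taking each column's minimum as 0 reads, 100% of values came out as whole reads (relative tolerance 1e-06); this is solved from the same values and is no separate check. Of 27179 genes, 26758 passed the filter (2 or more profiles with a log2 of 0 or higher) and were tested with limma 3.58.1 in R 4.3.3 (organ and preservation as terms, empirical Bayes with trend, 3 residual degrees of freedom, Benjamini-Hochberg adjustment). The design had allowed for 2 libraries per group, but the columns carry no replicate number. The fit of organ differences in the FFPE effect was first run with the trend over the mean difference; the trend over mean level was adopted after that output was seen. The script was tested on simulated data. The members had 30 to 2225 reads per profile, which sets their counting error only.

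The 10 members and the gene lists were chosen with earlier results of these data known. Named genes were all members and, of each list, called genes (up to 4) and up to 2 with the smallest fold; most alike were the 10 genes with the highest r to the members' mean. Markers of endothelium, fibroblasts, immune cells and erythroid cells had median FFPE folds of -0.20, -0.25, 0.07 and 0.01, with 0 of 6 called in each (limma; 1, 0, 0 and 0 at an unadjusted p under 0.05). Positions and promoter windows are from RefSeq tables on GRCm38.p6. Alternatives tried were other filters, other scalings, voom weights, and leaving out profiles. Input libraries were not analysed here.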

Additional observations from a re-analysis of the deposited data

Results flagged for a closer look

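Hspa8 and Hsp90ab1 are listed because their FFPE minus frozen difference in liver was farther below 0 than in the other 3 organs, by -2.28 ± 0.40 and -1.87 ± 0.40 (log2, limma, 1 value against 3). The SE holds no liver replicate, and the genes were chosen with these values known, so an effect particular to liver is not shown. Both passed an adjusted p under 0.05, as did 0.419% of genes tested in that direction, and neither did with quantile normalization, with scaling to silent receptor genes or with the trend over the mean difference. The hepatocyte markers differed between FFPE and frozen liver by a median of -2.26, and their part in the result was not tested. None of the 30 groups of 4 profiles (10 genes in frozen, in FFPE tissue and as organ differences) held a profile far from the others by Dixon's criterion. Each group holds 1 value per organ and no replicates, so the criterion cannot tell an outlying profile from an organ difference, and nothing is concluded from it.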

How the results depend on the processing

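No paired analysis was possible because the columns carry no replicate number, other than by organ, which is a term in the fit. Leaving out each profile in turn gave 5 to 10 of the 10 genes called lower in FFPE tissue. For brain it gave 1 to 9 called lower, for heart 1 to 8, for liver 0 to 6 and for kidney 0 to 1 called higher. For the further reduction in liver it gave 1 to 4, where a profile other than liver was left out. Over all genes it gave 13 to 80 called lower and 9 to 34 called higher in FFPE tissue, against 113 and 41. Those counts were 247 and 70 with voom weights, and 53 and 9 without heart and kidney; the higher count was 26 with a minimum log2 of 3 and 23 with added reads in proportion to depth. Voom weights gave 9 called lower in brain and 4 called higher in liver. Quantile normalization gave 1 called higher in kidney, 0 for the further reduction in liver, and a liver median of -1.51. Scaling to the summed reads of 1500 olfactory, vomeronasal and trace amine receptor genes gave 0 called higher in liver, 0 for the further reduction in liver and a kidney median of -1.08. With the trend over the mean difference, 0 were called for that reduction. Leaving out mitochondrial genes and scaling factors gave a liver median of -2.03 and moved the median of all genes to 0.11, and the members' median, -1.54, minus that was -1.64. No value changed sign, but the order of the organ medians did change: -1.51 in heart and liver alike with quantile normalization, and -1.08 in brain and kidney alike with receptor scaling. Where profiles were left out, fewer entered the fit; the other causes were not tested. Receptor scaling, leaving out heart and kidney (7 of 10 called), leaving out liver (10 of 10) and the other trend were added after seeing the data. The organ differences were not run with voom weights. Counting error limits single values with few reads, and these were all in FFPE tissue. In FFPE liver Hspe1 had 30 reads, Hsp90aa1 41 and Hspd1 50. In FFPE heart Hspe1 had 36, Hsph1 39 and Hspd1 48. Hspe1 had 34 and Bag3 35 in FFPE brain, and Hspe1 had 44 in FFPE kidney.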
